A study of Setaria viridis with 9 samples.

Results

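The libraries described here are the 3 leaf RNA libraries of Setaria viridis with the least transcript for chlorophyll a-b binding proteins, out of 9, set beside the other 6. They were chosen by measured values. The deposited counts of the 12 genes described as chlorophyll a-b binding proteins, the antenna of the photosystems, were summed in each library as CPM (the count scaled to a fixed library total), and the 3 lowest sums were taken. Those sums were 37038 CPM in the library labelled WT 3, 41229 CPM in pgr5 2 and 42106 CPM in ndhO 1, 1 library from each genotype label. The next library upward, pgr5 1, stood at 46485 CPM, and the remaining 5 ran from 46796 to 62924 CPM, so the step from the last library inside the choice to the first outside it was small. The mean log2 CPM of the same 12 genes chose the same 3 libraries. These 12 genes are left out of all that follows. Antenna genes described in other words, such as Lhca6 of photosystem I, stay in. Because every gene was measured in the libraries that were chosen, no difference between the 3 and the 6 was tested, and all such differences are descriptions.

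Setaria viridis, a wild millet, is a laboratory stand-in for C4 crops such as maize and sorghum. The study made polyadenylated RNA libraries of leaf from the cultivar ME034V-1, with 3 biological replicates of each of 3 genotype labels. These were WT, null NdhO (labelled ndhO) and null PGR5 (labelled pgr5), the null lines being gene-edited. NdhO belongs to the NADH dehydrogenase-like (NDH) complex of the thylakoid membrane, PGR5 is a small thylakoid protein, and each serves a route of cyclic electron flow around photosystem I. All plants shared 1 chamber regime of 16 h light and 8 h dark, and discs came from the youngest fully expanded leaves 3 to 4 weeks after sowing, under constant daylight; the labels say nothing of the hour of harvest of each library or of how many plants went into it.

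NdhO and PGR5 transcripts went against several labels, so each library is named below only by its label. NdhO (LOC117858157) was found at 44.3, 617 and 230.0 CPM in WT 1, 2 and 3, at 245, 443 and 446 CPM in ndhO 1, 2 and 3, and at 421, 20.5 and 48.4 CPM in pgr5 1, 2 and 3. PGR5 (LOC117861247) stood at 376, 46.5 and 42.8 CPM, at 38.1, 318 and 338 CPM, and at 287, 250 and 389 CPM in the same order. Among the 3 libraries low in antenna transcripts, WT 3 and ndhO 1 were thus low in PGR5 and pgr5 2 was low in NdhO. WT 2 was also low in PGR5, and WT 1 and pgr5 3 were low in NdhO, with none of these 3 low in antenna transcripts. ndhO 2, ndhO 3 and pgr5 1 were high in both, and none of them was in the low set. The part of either edited gene in the antenna level was not tested.

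In a leaf, nuclear genes for the antenna, the photosystems, carbon fixation and pigment synthesis tend to be transcribed together. The GOLDEN2-LIKE (GLK) transcription factors and the phytochrome photoreceptors drive this transcription in part. The chloroplast feeds signals back on that transcription, and its own ribosomes make the core proteins that the nuclear products join. In ageing leaves of other plants, autophagy and proteases take chloroplast proteins apart and their nitrogen is exported.

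A gene is said below to separate the libraries when all 3 low libraries lay above, or all 3 below, all other 6 in log2 CPM on TMM-scaled library sizes, a scaling that sets libraries level over most genes. The width of the gap is the log2 CPM distance between the nearest library of each set. Of 17987 genes deposited, 17970 passed the filter on low counts, and 17958 remained without the 12 genes of the choice. Among them 770 genes (4.29%) stood above in the 3 low libraries and 992 (5.52%) below. These shares are the background to every count below; since they come from the choice of the libraries, nothing is read from them. On plain CPM, which scales to the total count alone, 1237 stood above and 715 below, so 63.4% of separating genes stood above in place of 43.7%. That scaling moved the median within-label difference of all genes to 0.07, 0.16 and 0.06 in log2, from -0.013, 0.029 and 0.004.

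Wide gaps were mostly downward. A gap of at least 1 in log2, a 2-fold step with no library between, was found for 44 genes below and 5 above. One of at least 0.5 was found for 142 below and 39 above. Some of the wide downward gaps belonged to genes near 0 counts, such as laccase-3, with a gap of 2.61 at a mean of 1.28 CPM. In all, 20 genes had 0 counts in all 3 low libraries and at least 1 in each other library. The reverse held for 0 genes. Characterized genes with a mean of at least 10 CPM had 12 widest gaps of 0.90 to 2.31 below. Their 12 widest above were 0.55 to 2.51. The genes that stood below were often plastid genes by their description: 332 of the 992 (33.5%) were described as chloroplastic, beside 31 of the 770 above (4.03%) and 1301 of all 17958 (7.24%). Genes with no characterized product made up 25.3% of those above, 15.7% of those below and 22.3% of all. WT 3 was the most extreme of the 3 in 53.1% of genes below and 41.7% of genes above, ahead of ndhO 1 (25.2% and 30.9%) and pgr5 2 (21.7% and 27.4%). Over all genes tested the shares were 36.5% for WT 3, 32% for ndhO 1 and 31.5% for pgr5 2. Among the other 6, the library nearest to the low set was WT 1 for 30.9% of genes below and 21.6% above, and pgr5 1 for 24.7% and 23.6%, while pgr5 3 was nearest for 4.64% and 7.4%. Over all genes tested WT 1 was nearest for 18.2%, pgr5 1 for 12.8% and pgr5 3 for 21%.

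Depth moved with the choice. Total counts ran from 11606570 to 18837265, and the low libraries ranked 1 (WT 3), 2 (pgr5 2) and 4 (ndhO 1) from the smallest; their TMM factors were 1.053, 1.036 and 1.04 beside 0.9427 to 1.035 in the other 6. The part of depth in the differences below was not tested. Spearman correlations across genes, which are not independent replicates, were 0.96 to 0.966 for the 3 pairs within the low set, 0.921 to 0.961 between the sets and 0.941 to 0.977 within the other 6. The labels give an RNA integrity score above 8.5 for all samples and no batch or date.

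Each list of genes below is described by how many of its members separate the libraries and by its within-label difference. That is the log2 CPM of the low library minus the mean of the other 2 libraries of the same label, taken as the median over the list, with 1 value for each of WT, ndhO and pgr5 in that order. Each rests on 3 libraries: leaving out one of the other 2 moved 71 of the 156 values by over 1.5 times and changed the sign of 24 more. NdhO and PGR5 transcript levels varied within the labels. The differences therefore compare libraries that share a label, not a level of these transcripts. Values in single genes and list sums are CPM on TMM-scaled library sizes, single genes being given for the low libraries in the order WT 3, ndhO 1 and pgr5 2, and for the other 6 as the range and the median. Leaf tissue was sequenced with its cell types mixed, so fewer cells of a type and less RNA per cell cannot be told apart. The lists were chosen with earlier results of these data known and are no independent evidence of a direction. The rule for named genes took the 12 widest gaps in each direction and the widest gap of each list, and other genes named were chosen after their values were seen.

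**Figure D1:**
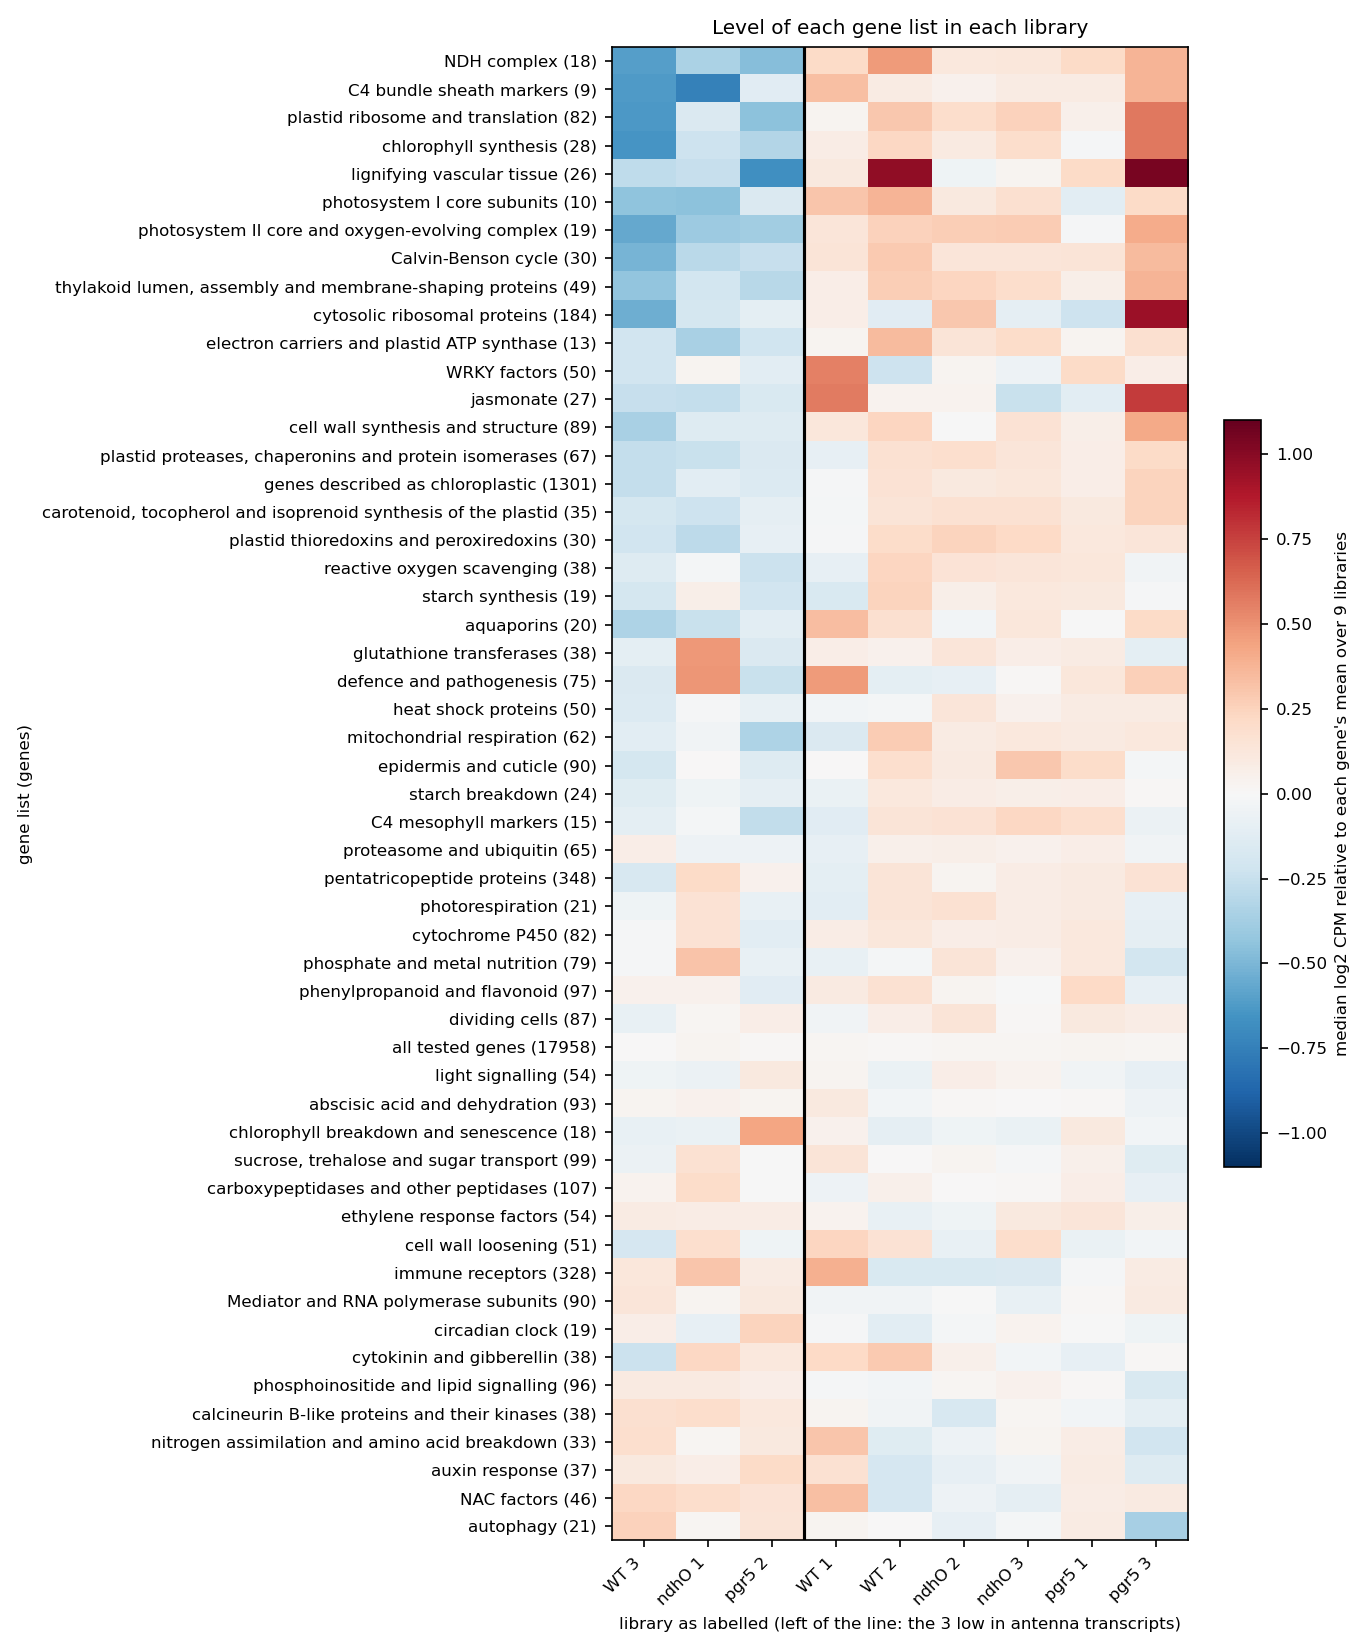
Median log2 CPM of each of 52 gene lists and of all tested genes (rows, with the number of genes) in each of the 9 libraries (columns), relative to each gene's own mean over the 9. The 3 libraries low in antenna transcripts stand left of the line; the NDH list is at -0.60, -0.35 and -0.47 there, and the lists of photosystem, pigment and plastid translation genes share its sign in all 3.

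Most genes of the light reactions outside the antenna stood low. Of 10 photosystem I core genes, 7 stood below in the low libraries and 0 above, with within-label differences of -0.79, -0.60 and -0.20 in log2; their summed level was 20100.0 to 24350.0 CPM in the low libraries and 25360.0 to 36070.0 CPM in the others. The pgr5 difference was -0.061 without pgr5 3 and -0.343 without pgr5 1. The widest gap was that of subunit N (LOC117865346), a lumenal subunit at the plastocyanin side, at 1940.0, 1794 and 2177 CPM beside 2450.0 to 3593 CPM (median 3018). All 3 low libraries lay under every other, by a gap of 0.17. Photosystem II had 13 of 19 genes below and 0 above (-0.59, -0.67 and -0.53), among them the oxygen-evolving enhancer proteins that steady the water-splitting cluster. Enhancer protein 1 (LOC117858010) stood at 4696, 4777 and 4350.0 CPM beside 5404 to 7754 CPM (median 6449). The widest photosystem II gap belonged to psbP domain-containing protein 1 (LOC117848705), a lumenal relative of an oxygen-evolving subunit with an assembly role for photosystem I in Arabidopsis, at 8.59, 12.6 and 12.7 CPM beside 28.4 to 48.7 CPM (median 34.6). The 22 kDa protein (LOC117859110), PsbS, which senses lumen acidity for the dissipation of excess light, stood at 475, 436 and 547 CPM beside 738 to 1080.0 CPM (median 858). None of these 4 genes had a low library inside the range of the others.

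The NDH complex, which returns electrons from ferredoxin to plastoquinone, had 13 of 18 nuclear genes below and 0 above. Its within-label differences of -0.95, -0.61 and -0.79 included, for WT, the lowest value of all 52 lists after the C4 bundle sheath markers, and its summed level of 3736 to 4425 CPM in the low libraries lay under the 6018 to 7831 CPM of the others. The lumenal subunit 2 (LOC117849455) stood at 31.9, 44.9 and 41.6 CPM beside 80.4 to 119 CPM (median 96.4). Subunit L (LOC117842009), an anchor in the membrane, stood at 256, 288 and 223 CPM beside 450 to 789.6 CPM (median 606), and subunit 2 of subcomplex B (LOC117838176) at 91.8, 112 and 139 CPM beside 222 to 366 CPM (median 242). The 5 that did not separate the libraries were NdhO itself (LOC117858157), subunit T (LOC117833231), subunit 5 of subcomplex B (LOC117856781), a second gene for subunit 3 of subcomplex B (LOC117846384) and NDH-DEPENDENT CYCLIC ELECTRON FLOW 5 (LOC117840143), a factor needed for the complex. Most of the complex stood low in pgr5 2, which had little NdhO transcript, and in WT 3 and ndhO 1, which had 230.0 and 245 CPM of it. WT 1 and pgr5 3, also low in NdhO, stood 0.209 and 0.375 above the gene means in the median of the list. The part of NdhO in these levels was not tested. An antenna protein of photosystem I that links it to the NDH complex, Lhca6 (LOC117844986), whose description lacks the words of the choice, stood at 52.7, 75.9 and 72.7 CPM beside 123 to 218 CPM (median 149).

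Electron carriers and the plastid ATP synthase had 8 of 13 genes below and 0 above (-0.43, -0.48 and -0.29). The ferredoxin gene LOC117859633, a soluble carrier that takes electrons from photosystem I, had the widest gap of them at 165, 205 and 250.5 CPM beside 466 to 720.3 CPM (median 614). Plastocyanin (LOC117853145), the copper carrier that feeds photosystem I, stood at 2050.0, 2269 and 2165 CPM beside 2499 to 4542 CPM (median 3656), and the ATP synthase delta chain (LOC117838308) at 471, 426 and 499.7 CPM beside 671 to 792 CPM (median 729). Proteins that build and shape the thylakoid, in a list added after the separating genes were seen, had 21 of 49 below and 0 above (-0.57, -0.35 and -0.47). CURVATURE THYLAKOID 1A (LOC117842116), which bends the membrane at the edge of grana, stood at 44.6, 68.6 and 60.0 CPM beside 109 to 248 CPM (median 159.7). Its lowest value among the others, in pgr5 1, was above its highest among the low libraries, in ndhO 1.

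Carbon fixation was split between the Calvin-Benson cycle and the C4 pump. In the Calvin-Benson cycle 15 of 30 genes stood below and 0 above (-0.67, -0.50 and -0.46), and the summed level was 28380.0 to 34590.0 CPM in the low libraries beside 44940.0 to 49800.0 CPM. Subunit A of plastid glyceraldehyde-3-phosphate dehydrogenase (LOC117863891), the reducing step of the cycle, stood at 2383, 2594 and 2644 CPM beside 4327 to 5578 CPM (median 4495), a gap of 0.71. Phosphoribulokinase (LOC117834135), which regenerates the acceptor of CO2, stood at 1030.0, 1019 and 1497 CPM beside 1796 to 2309 CPM (median 2073). The low libraries were alike in the dehydrogenase, while in the kinase pgr5 2 stood nearer to the others.

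Of 15 genes with the words of the C4 mesophyll markers, a list that also takes in carbonic anhydrases of mitochondria, 1 stood below and 0 above (-0.14, -0.15 and -0.32). The summed levels overlapped, at 64800.0 to 85090.0 CPM in the low libraries and 67820.0 to 95540.0 CPM in the others. Pyruvate, phosphate dikinase 2 (LOC117850669), which makes the 3-carbon acceptor of the C4 cycle and was the most abundant gene of the list, stood at 49090.0, 34340.0 and 36000.0 CPM beside 31140.0 to 45670.0 CPM (median 40060.0), with WT 3 above all others. Phosphoenolpyruvate carboxylase (LOC117854270), the first CO2-fixing step, stood at 25090.0, 24470.0 and 19390.0 CPM beside 26320.0 to 35990.0 CPM (median 30270.0); its gap was 0.07, and on plain CPM the sets overlapped by 0.004. Of 9 bundle sheath markers, 4 stood below and 0 above (-0.98, -0.74 and -0.43), and all 4 encode the small subunit of rubisco (LOC117850525, LOC117850089, LOC117850448 and LOC117850422, the last overlapping by 0.052 on plain CPM). One of them (LOC117850525) stood at 376, 475 and 677 CPM beside 815 to 1595 CPM (median 1019); these copies are close relatives, so the authors' counting could have split reads between them. NADP-dependent malic enzyme (LOC117857444), the decarboxylase that releases CO2 in the bundle sheath, overlapped at 9342, 9077 and 12440.0 CPM beside 10190.0 to 13440.0 CPM (median 11540.0). Photorespiration had 1 of 21 above and 1 below (-0.082, 0.025 and -0.14), both H proteins of the glycine cleavage system: LOC117862444 stood at 59.0, 74.7 and 85.4 CPM beside 106 to 147 CPM (median 125), and LOC117848809 at 79.5, 81.3 and 75.7 CPM beside 51.0 to 70.1 CPM (median 62.7).

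Pigment synthesis stood with the light reactions. Of 28 chlorophyll synthesis genes 17 stood below and 0 above (-0.79, -0.38 and -0.63), with pgr5 at -0.313 without pgr5 3. Glutamyl-tRNA reductase 2 (LOC117838070), the first committed step of tetrapyrrole synthesis, stood at 235, 356 and 374 CPM beside 546 to 1395 CPM (median 829.9). Magnesium protoporphyrin IX methyltransferase (LOC117853906), on the chlorophyll branch, had the widest gap of the list at 34.6, 52.0 and 53.0 CPM beside 79.0 to 114 CPM (median 99.3). All 3 subunits of magnesium chelatase separated the libraries, with the large ChlH (LOC117863876) at 1590.0, 1919 and 1920.0 CPM beside 2200.0 to 4856 CPM (median 2911). Carotenoid, tocopherol and isoprenoid genes of the plastid, an added list, had 13 of 35 below and 2 above (-0.28, -0.40 and -0.22). Phytoene synthase 1 (LOC117852649), the entry step of carotenoids, stood at 103, 195 and 157 CPM beside 301 to 544 CPM (median 402), and lycopene epsilon cyclase (LOC117859306), which turns the path toward lutein, at 14.1, 26.9 and 30.4 CPM beside 52.7 to 109 CPM (median 62.9). Homogentisate 1,2-dioxygenase (LOC117852555), which breaks down the precursor of tocopherol in the degradation of tyrosine, went the other way at 95.4, 71.8 and 48.0 CPM beside 10.1 to 42.1 CPM (median 35.0). The other gene above was a 1-deoxy-D-xylulose-5-phosphate synthase (LOC117854166), which starts plastid isoprenoid synthesis, at 26.9, 34.1 and 25.3 CPM beside 20.8 to 23.4 CPM (median 21.5).

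Transcripts of GLK factors and of photoreceptors are given next. GLK1 (LOC117853798) stood at 376, 346 and 320.0 CPM beside 192 to 317 CPM (median 253), and GLK2 (LOC117855601) at 179, 196 and 180.2 CPM beside 114 to 164 CPM (median 150.4). In the low set both lay above all other libraries, GLK1 by a gap of 0.012 and GLK2 by 0.13. The part of these factors in the levels of the plastid genes was not tested. A pair of phototropin genes, blue light receptors that move chloroplasts and open stomata, also lay above: LOC117867016 at 646, 557 and 473 CPM beside 199.4 to 374 CPM (median 364), and LOC117863612 at 240.4, 229 and 191 CPM beside 113 to 160.5 CPM (median 154). Phytochrome C (LOC117838217), a red and far-red receptor and the widest gap of the light signalling list, stood at 80.6, 83.3 and 93.2 CPM beside 49.3 to 62.02 CPM (median 56.8). Phytochrome B (LOC117836519) stood at 52.9, 54.6 and 52.7 CPM beside 42.1 to 49.9 CPM (median 46.9), a narrower step of 0.08. In the whole light signalling list 7 of 54 stood above and 2 below, with medians of 0.018, -0.069 and 0.18; the seventh above was COP1 SUPPRESSOR 2 (LOC117840487), and those below were a B-box zinc finger protein (LOC117847458) and a root phototropism protein 2-like gene (LOC117833311).

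The circadian clock was described as a check on the hour of harvest, since antenna transcripts follow the day. Of 19 clock genes 1 stood above and 0 below (0.12, -0.082 and 0.25), and 5 above on plain CPM. The gene above, PRR37 (LOC117842219), a daytime repressor of the clock, stood at 291, 309 and 325 CPM beside 211 to 250.0 CPM (median 220.4). CCA1 (LOC117861503), which peaks near dawn in other plants, overlapped at 744, 506 and 671 CPM beside 513 to 731 CPM (median 592), and so did the afternoon gene GIGANTEA (LOC117857839) at 681, 657 and 720.0 CPM beside 545 to 700.1 CPM (median 646). The part of harvest hour in the antenna level was not tested.

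**Figure D2:**
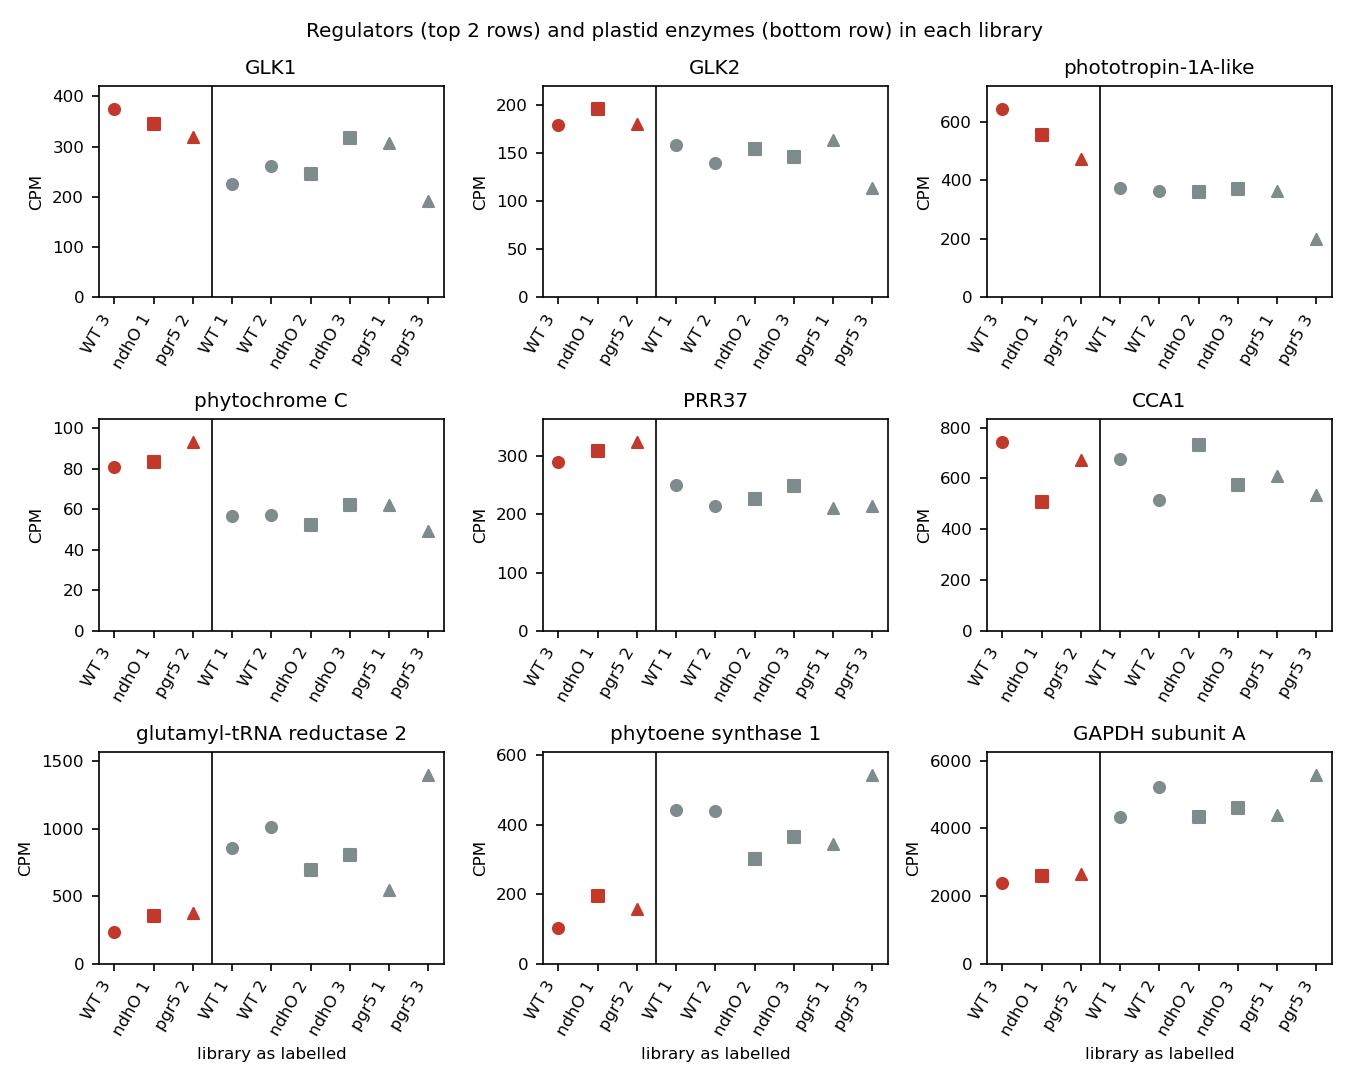
CPM (y axes, from 0) of 9 genes in each library (x axes), with circles for the label WT, squares for ndhO and triangles for pgr5, and the 3 libraries low in antenna transcripts in red left of the line. GLK1, GLK2, phototropin, phytochrome C and PRR37 stand higher there, CCA1 overlaps, and the 3 plastid enzymes of the bottom row stand lower; the genes were chosen after their values were seen.

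Plastid redox defence was lower as well. The list of reactive oxygen scavengers had 10 of 38 genes below and 2 above (-0.17, -0.26 and -0.32), and 8 of the 10 were plastid forms by description or name. The plastid copper-zinc superoxide dismutase (LOC117860655), which turns superoxide made at photosystem I into peroxide, stood at 162, 164 and 145 CPM beside 379 to 671 CPM (median 466), a gap of 1.21. Peroxiredoxin-2E-2 (LOC117851388) stood at 30.9, 65.8 and 43.7 CPM beside 125 to 282 CPM (median 184), and peroxiredoxin Q (LOC117851422), a thiol peroxidase of the thylakoid, at 13.9, 39.7 and 21.6 CPM beside 74.0 to 187 CPM (median 107). In both peroxiredoxins ndhO 1 was the highest of the low libraries and WT 3 the lowest. Ascorbate peroxidase 8 (LOC117859935) stood at 389, 398 and 372 CPM beside 555 to 939 CPM (median 694). Catalase isozyme 3 (LOC117841557), a peroxisomal or cytosolic peroxide scavenger, was instead among the widest gaps upward, at 61.1, 91.0 and 49.5 CPM beside 1.86 to 25.4 CPM (median 5.40); WT 1 was the highest of the others. The remaining gene above was glutathione peroxidase 4 (LOC117839298), at 23.7, 25.9 and 23.7 CPM beside 15.4 to 22.9 CPM (median 17.7). The added list of plastid thioredoxins and peroxiredoxins, which shares these genes, had 9 of 30 below and 0 above.

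The calcium sensing receptor of the thylakoid (LOC117866697), which links plastid calcium to stomatal closure in Arabidopsis, was among the 12 widest gaps below at 36.8, 29.8 and 24.8 CPM beside 71.6 to 127 CPM (median 99.01). Plastid proteases, chaperonins and protein isomerases, another added list, had 21 of 67 below and 2 above (-0.22, -0.35 and -0.29). An immunophilin of the thylakoid, CYP37 (LOC117845766), stood at 57.7, 48.4 and 50.4 CPM beside 85.8 to 137 CPM (median 109). Against that, the plastid J-domain chaperone LOC117858178 stood at 214, 181 and 191 CPM beside 46.3 to 145 CPM (median 119.7), and dnaJ C76 (LOC117854423) was the other above. The chloroplast ribosome and its translation factors had 34 of 82 genes below and 1 above, a 50S L27-like gene (LOC117865343), and differences of -0.75, -0.37 and -0.69. Ribosomal protein S21 (LOC117848296) stood at 26.6, 37.5 and 28.9 CPM beside 56.4 to 76.1 CPM (median 66.3). The pentatricopeptide proteins, which process organelle RNA, were split, with 23 of 348 below and 9 above (-0.13, 0.16 and -0.084).

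Cytosolic ribosomal proteins had 18 of 184 genes below and 0 above, 9 below on plain CPM, and within-label differences of -0.51, -0.27 and -0.44. The last of these rested on pgr5 3, the library highest in this list at 0.94 above the gene means in median log2 CPM; without pgr5 3 the difference was 0.15. The 40S S2-3-like gene (LOC117839488) had the widest gap at 11.4, 13.9 and 15.8 CPM beside 20.1 to 42.2 CPM (median 24.0), and members of this family share reads. Mitochondrial respiration had 6 of 62 genes below and 0 above (-0.16, -0.12 and -0.45), led by an iron-sulfur subunit of complex I (LOC117860473) at 13.4, 16.0 and 15.4 CPM beside 18.2 to 31.2 CPM (median 21.6).

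Cell wall genes held several of the widest gaps. In the added list of wall synthesis and structure 21 of 89 stood below and 3 above (-0.58, -0.17 and -0.32), the latter a glycine-rich wall protein (LOC117851564) and galacturonosyltransferases 10 (LOC117863585) and 4 (LOC117833648). The PELPK1-like gene (LOC117836899), a repeat protein of the wall, had the widest downward gap of the characterized genes with a mean of at least 10 CPM. It stood at 3.44, 2.67 and 3.44 CPM beside 17.6 to 49.5 CPM (median 24.8). Fasciclin-like arabinogalactan protein 13 (LOC117850594), a wall glycoprotein, stood at 0 counts in WT 3, at 1.58 and 0.704 CPM in ndhO 1 and pgr5 2, and at 6.67 to 35.5 CPM (median 8.36) in the others. Mixed-linked glucan synthase 6 (LOC117860234), of the family that makes the beta-glucan of grass walls, stood at 3.93, 3.15 and 3.29 CPM beside 14.5 to 87.2 CPM (median 20.6). In each of these 3 genes the highest of the others was pgr5 3. Cellulose synthase catalytic subunit 8 (LOC117843626) stood at 13.2, 12.8 and 13.2 CPM beside 27.7 to 119 CPM (median 32.9), and subunits 1 (LOC117852210) and 6 (LOC117843743) were lower too, at 16.9, 18.0 and 19.6 CPM beside 29.6 to 56.7 CPM (median 36.0) and at 10.96, 6.72 and 6.96 CPM beside 16.1 to 78.3 CPM (median 23.4). All 3 low libraries were close to each other in subunits 8 and 1. The beta-glucosidase BoGH3B-like gene (LOC117837885), a glycosyl hydrolase, and the subtilisin-like protease SBT3 (LOC117846998) were also among the 12, at 20.9, 22.7 and 16.0 CPM beside 46.8 to 129.5 CPM (median 55.2) and at 6.95, 5.62 and 7.51 CPM beside 15.5 to 33.6 CPM (median 19.4). So was kinesin-like KIN-13B (LOC117858089), a motor protein that takes down microtubules, at 3.11, 4.94 and 5.79 CPM beside 11.6 to 22.2 CPM (median 16.6).

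Markers of other tissues are given beside these wall genes. Of 26 genes of lignifying vascular tissue 7 stood below and 1 above, cinnamyl alcohol dehydrogenase 5 (LOC117859817), with differences of -0.63, -0.36 and -1.37; the summed level was 243 to 346 CPM in the low libraries and 295 to 432 CPM in the others, and 11 members had a 0 count in some library. WT 2 and pgr5 3 stood highest in that list, 0.98 and 1.04 above the gene means. Epidermis and cuticle markers had 6 of 90 below and 1 above, a GDSL lipase (LOC117852553) (-0.21, -0.11 and -0.16; 3175 to 4251 beside 3644 to 5616 CPM), and dividing cells 4 of 87 below and 0 above, KIN-13B, KIN-14R, cyclin-D3-1-like (LOC117838967) and histone H2A-like (LOC117843503) (-0.12, 0.002 and 0.007; 2612 to 2712 beside 2585 to 2722 CPM). The vascular and epidermal sums overlapped between the sets, as did those of dividing cells, and their part in the wall genes or the plastid genes was not tested. The labelled tissue, leaf, had its defining transcripts in every library, with the C4 mesophyll list at no less than 64800 CPM.

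**Figure D3:**
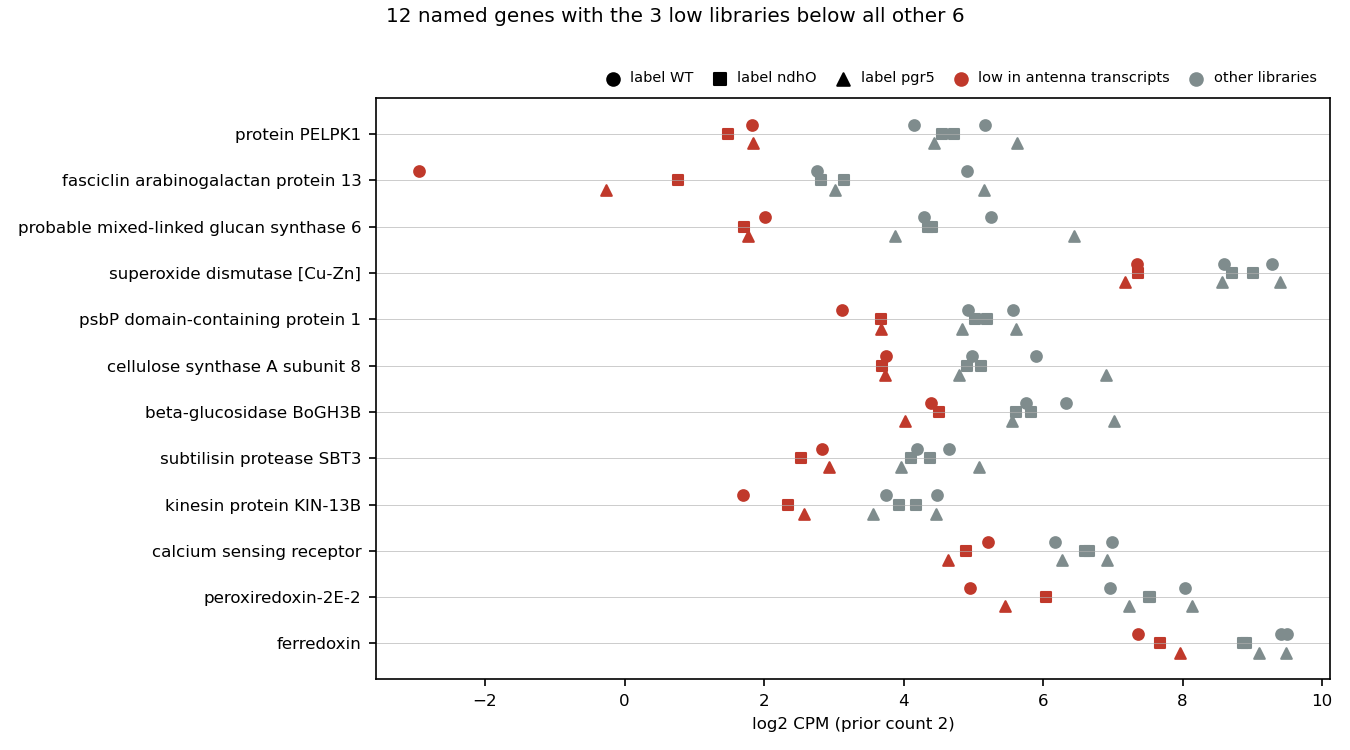
Log2 CPM (x axis) of the 12 characterized genes with the widest downward gaps among those with a mean of at least 10 CPM (rows), 1 point per library, with shape for the label and red for the 3 libraries low in antenna transcripts. In each row all red points lie left of all grey points; fasciclin arabinogalactan protein 13 spreads most, with WT 3 at 0 counts.

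**Figure D4:**
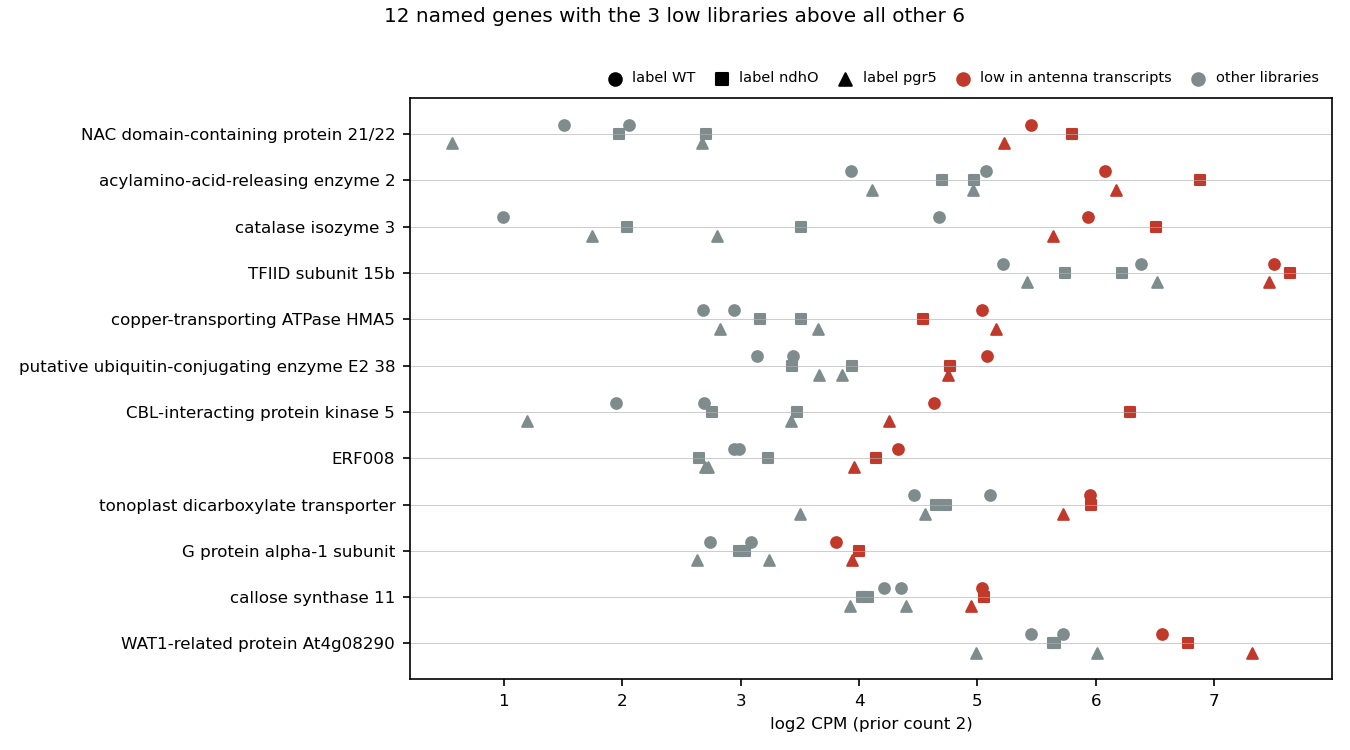
Log2 CPM (x axis) of the 12 characterized genes with the widest upward gaps among those with a mean of at least 10 CPM (rows), drawn in the same way. In each row all red points lie right of all grey points, and the gap narrows from 2.51 for the NAC gene at the top to 0.55 for the last row.

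Among the genes that stood higher, 1 transcription factor stood far ahead. The NAC domain-containing protein 21/22-like gene (LOC117861164), of a plant family of regulators active in development and stress, stood at 43.8, 55.6 and 37.2 CPM beside 1.34 to 6.41 CPM (median 3.92). Its gap of 2.51 was the widest upward gap of the named genes, and its within-label differences of 3.67, 3.46 and 3.60 were nearly the same in the 3 labels. Of 46 NAC genes 7 stood above and 3 below (0.23, 0.22 and 0.18). A NAC 92-like gene (LOC117842207), named for an Arabidopsis factor of leaf ageing, stood at 30.4, 19.6 and 23.1 CPM beside 3.91 to 15.8 CPM (median 13.0). The NAC 18-like gene (LOC117860738) was the most abundant of the 7 at 214, 155 and 196 CPM beside 94.1 to 151 CPM (median 138), a gap of 0.038. Below were NAC 53-like (LOC117841620), 75-like (LOC117857922) and 77-like (LOC117862902). WT 1, outside the low set, stood highest in the median of the list, at 0.33 above the gene means, and without WT 2 the WT difference was -0.083.

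Lists of protein breakdown stood near the share of all genes. Acylamino-acid-releasing enzyme 2 (LOC117836162), which clips blocked residues from peptides, had the second widest upward gap among characterized genes with a mean of at least 10 CPM, at 67.6, 117 and 71.9 CPM beside 15.2 to 33.6 CPM (median 28.4). In the added list of peptidases 7 of 107 stood above and 2 below (0.084, 0.22 and -0.008), methionine aminopeptidase 1B (LOC117846283) and PCS1-like (LOC117837055), with glutamate carboxypeptidase LAMP1 (LOC117858029) at 440.1, 419 and 379.6 CPM beside 183 to 284 CPM (median 255). The cysteine proteinase 2 gene (LOC117844542), of a class active in senescing leaves, stood at 629, 710.4 and 619 CPM beside 369 to 613 CPM (median 549), a gap of 0.014. An E2 ubiquitin-conjugating enzyme (LOC117857905), which passes ubiquitin to its targets, stood at 33.6, 27.1 and 26.8 CPM beside 8.66 to 15.2 CPM (median 11.6). The proteasome itself had 1 of 65 above and 1 below (0.11, -0.12 and -0.088), the beta type-7-A-like (LOC117848901) and beta type-3 (LOC117854208) subunits, the second overlapping by 0.018 on upper-quartile scaling.

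Autophagy, the delivery of cell contents to the vacuole, had 5 of 21 genes above and 0 below (0.26, 0.050 and 0.29). The pgr5 difference was 0.057 without pgr5 3 and 0.486 without pgr5 1, and the ndhO difference ran from 0.016 to 0.091. ATG8D-like (LOC117853153), whose family coats the forming vesicle, stood at 20.0, 19.4 and 26.8 CPM beside 12.7 to 17.1 CPM (median 14.4); the others above were ATG8C-like (LOC117865336), ATG9-like (LOC117837482), ATG11 (LOC117847499) and ATG2 (LOC117854183). The cargo receptor JOKA2 (LOC117859872) stood at 593, 586 and 591 CPM beside 377 to 488 CPM (median 456). Also above, and in no list of their own, were GCN2 and RSH3. GCN2 (LOC117865743), a kinase that senses uncharged tRNA, stood at 29.2, 27.4 and 29.0 CPM beside 15.6 to 20.2 CPM (median 16.3), and RSH3 (LOC117842057), a plastid enzyme that makes the alarmone of the stringent response, at 38.6, 30.9 and 34.1 CPM beside 15.8 to 22.8 CPM (median 20.4). The steps in GCN2 and RSH3 were about as wide, with gaps of 0.44.

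Chlorophyll breakdown and senescence was mixed, with 2 of 18 genes above and 3 below (-0.10, 0.069 and 0.34). A pheophytinase (LOC117863603), which removes the phytol tail, stood at 177, 136 and 181 CPM beside 99.02 to 128 CPM (median 114), and a second pheophytinase (LOC117850163) went the other way at 80.5, 73.7 and 88.5 CPM beside 96.3 to 108 CPM (median 102). Red chlorophyll catabolite reductase (LOC117840638), the step that opens the way to colourless products, stood at 54.5, 48.7 and 54.4 CPM beside 30.03 to 42.9 CPM (median 40.6). Chlorophyll b reductase NOL (LOC117839499) lay below at 16.5, 16.1 and 13.3 CPM beside 20.0 to 26.6 CPM (median 23.7), as did STAY-GREEN LIKE (LOC117848460). The median of the list was highest in pgr5 2, at 0.43, while WT 3 and ndhO 1 stood at -0.08 and -0.07, and without WT 1 the WT difference was 0.143.

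Several signalling lists are given next, which hold a small part of the 770 genes above. In the added list of calcineurin B-like (CBL) calcium sensors and their kinases 6 of 38 stood above and 0 below (0.16, 0.17 and 0.20), all of them kinases. CBL-interacting protein kinase 5 (LOC117858243) stood at 24.7, 78.1 and 18.9 CPM beside 2.16 to 10.97 CPM (median 6.50), with ndhO 1 far ahead. Kinase 10 (LOC117838254) and kinase 21 (LOC117843068) were more abundant, at 227, 154 and 143 CPM beside 39.7 to 102 CPM (median 88.0) and at 242, 202 and 207 CPM beside 104 to 170.1 CPM (median 139). Auxin response genes had 5 of 37 above and 0 below (-0.086, 0.22 and 0.28), all 5 of them Aux/IAA repressors of auxin signalling. IAA13-like (LOC117837414) stood at 6.22, 10.1 and 4.23 CPM beside 1.16 to 3.17 CPM (median 2.08), IAA17-like (LOC117848271) at 54.5, 71.5 and 92.7 CPM beside 25.4 to 45.1 CPM (median 36.9) and IAA4-like (LOC117857966) at 25.5, 27.1 and 23.6 CPM beside 9.52 to 18.0 CPM (median 11.96). IAA2-like (LOC117857829) and IAA19-like (LOC117850501) were the other pair. WT 1, outside the low set, stood above WT 3 in the median of the list, at 0.16 beside 0.11, and without WT 1 the WT difference was 0.225.

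Abscisic acid and dehydration had 5 of 93 above and 0 below (0.043, 0.062 and 0.058), a share near that of all genes. PYL5-like (LOC117850197), a receptor of the hormone, stood at 60.3, 53.8 and 57.3 CPM beside 28.1 to 45.9 CPM (median 44.4); the others were the PYL3 receptor (LOC117850185), 2 ABSCISIC ACID-INSENSITIVE 5-like genes (LOC117850508 and LOC117858095) and protein phosphatase 2C 44 (LOC117865344). Phosphoinositide and lipid signalling, an added list, had 12 of 96 above and 2 below (0.15, 0.078 and 0.20), the latter both enzymes of glycolipid anchors (LOC117843832 and LOC117836812). Those above were led by the phosphatase SAC2-like (LOC117840564) at 71.2, 75.7 and 67.8 CPM beside 42.3 to 54.6 CPM (median 53.8). Mediator and RNA polymerase subunits, also added, had 11 of 90 above and 1 below (0.15, 0.11 and 0.12). Mediator subunit 33A (LOC117844803) stood at 74.8, 67.0 and 68.4 CPM beside 52.0 to 58.0 CPM (median 56.3), and a second 33A gene (LOC117843816) was the one below. TFIID subunit 15b (LOC117861847), of the complex that places RNA polymerase at promoters, was among the 12 widest gaps at 182, 199.3 and 176 CPM beside 37.1 to 91.6 CPM (median 63.8). A G protein alpha-1 subunit (LOC117838127), which relays signals from receptors, stood at 13.8, 15.8 and 15.3 CPM beside 6.08 to 9.34 CPM (median 7.93). Immune receptors had 20 of 328 above and 2 below (0.053, 0.44 and 0.10); the wall-associated kinase LOC117844748 stood at 8.997, 17.9 and 6.89 CPM, and in the others from 0 counts in WT 2 and pgr5 3 to 4.64 CPM. Below were wall-associated kinase 2-like (LOC117849122) and RPP13-like (LOC117858761). The immune list was highest in WT 1 at 0.39, outside the low set, ahead of ndhO 1 at 0.31, and without WT 2 its WT difference was -0.283.

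The remaining genes among the 12 widest upward gaps are described here. The copper-transporting ATPase HMA5-like (LOC117863572) stood at 32.6, 23.2 and 35.5 CPM beside 6.30 to 12.5 CPM (median 8.21). The tonoplast dicarboxylate transporter (LOC117844530), which moves malate across the vacuole membrane, stood at 61.7, 62.1 and 52.7 CPM beside 11.2 to 34.2 CPM (median 24.1). Callose synthase 11 (LOC117856858), a maker of wall glucan at wounds and plasmodesmata, stood at 32.6, 33.2 and 30.8 CPM beside 15.0 to 20.9 CPM (median 17.5), and the WAT1-related transporter (LOC117839277) at 94.2, 109.9 and 159.5 CPM beside 31.5 to 64.2 CPM (median 49.99). The 3 low libraries were nearly level in callose synthase, and pgr5 2 was highest in the WAT1-related gene. The ethylene response factor ERF008-like (LOC117851379) stood at 20.0, 17.6 and 15.4 CPM beside 6.13 to 9.28 CPM (median 7.03); 3 of 54 ethylene response factors stood above, with ABR1-like (LOC117854941) and CRF3-like (LOC117846952), and 1 below, ERF053-like (LOC117863814).

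Sugar, starch and nutrient lists are set beside 4.29% of all genes above and 5.52% below. Their shares above were 5.05% for sugar genes, 3.03% for nitrogen and 6.33% for phosphate and metal nutrition, near that of all genes. The shares below were 2.02% for sugar genes, 3.8% for phosphate and metal nutrition and 8.33% for starch breakdown, the last from 2 genes. Sucrose, trehalose and sugar transport had 5 of 99 above and 2 below (-0.069, 0.14 and 0.073). Sucrose:sucrose 1-fructosyltransferase (LOC117861538), which starts fructan synthesis from stored sucrose, stood at 24.3, 46.1 and 30.1 CPM beside 9.03 to 19.2 CPM (median 15.9), and a galactinol-sucrose galactosyltransferase (LOC117846586), which makes raffinose, at 9.98, 56.0 and 9.62 CPM beside 2.63 to 8.91 CPM (median 6.41). The rest above were an ERD6-like transporter (LOC117850107), a cell wall invertase (LOC117857550) and SWEETIE (LOC117835346), and SWEET16-like (LOC117835955) and polyol transporter 6 (LOC117836987) lay below. Starch synthesis had 3 of 19 (15.8%) below and 0 above (-0.25, 0.019 and -0.30), both subunits of ADP-glucose pyrophosphorylase (LOC117860441 and LOC117838388) and isoamylase 2 (LOC117849859); the small subunit stood at 494, 590.3 and 541 CPM beside 708 to 1010.0 CPM (median 754). Starch breakdown had 2 of 24 below and 0 above (-0.16, -0.19 and -0.10), a beta-amylase (LOC117841976) at 1110.0, 1215 and 1072 CPM beside 1347 to 2036 CPM (median 1698) and alpha-glucan water dikinase (LOC117852289). The summed level of starch breakdown did not overlap, at 2916 to 3174 CPM in the low libraries beside 3670.0 to 4538 CPM, while that of starch synthesis did, at 4319 to 5181 beside 4829 to 6355 CPM. Nitrogen assimilation had 1 of 33 above and 0 below (0.20, 0.053 and 0.21), asparagine synthetase 2 (LOC117838889), a maker of the amide that carries nitrogen out of leaves, at 66.1, 77.3 and 65.7 CPM beside 45.5 to 61.4 CPM (median 53.6). Phosphate and metal nutrition had 5 of 79 above and 3 below (-0.015, 0.20 and -0.10). YSL13 (LOC117865167), purple acid phosphatases 15 (LOC117839637) and 18 (LOC117839323) and SPX4 (LOC117836885) lay above, and nicotianamine aminotransferase 1-like (LOC117833371) and sulfate transporters 3.5 (LOC117859216) and 3-like (LOC117840106) below. Also above was sulfate transporter 1.2-like (LOC117840999) at 7.197, 7.55 and 7.59 CPM beside 3.63 to 5.02 CPM (median 4.51).

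Stress lists and a few smaller ones follow, beside 4.29% of all genes above and 5.52% below. Their shares below were 4% for WRKY factors, 8% for heat shock proteins, 11.1% for jasmonate and 4% for defence. They were 10.5% for glutathione transferases, 3.66% for cytochrome P450 and 5.15% for phenylpropanoids, each from 5 genes or fewer. Of 50 WRKY factors 0 stood above and 2 below (-0.58, 0.18 and -0.42), WRKY 70-like (LOC117866669) and WRKY 34 (LOC117865801), and without WT 1 the WT difference was 0.132. Heat shock proteins had 4 of 50 below and 0 above (-0.11, -0.19 and -0.17), led by a mitochondrial Hsp70 (LOC117844678) at 5.56, 9.95 and 8.92 CPM beside 16.5 to 27.0 CPM (median 19.8), with 2 stromal Hsp70 genes (LOC117848655 and LOC117848821) and heat stress factor A-2d (LOC117839235). Jasmonate had 3 of 27 below and 0 above (-0.40, -0.030 and -0.57), the JAZ repressors TIFY 10c (LOC117846536) at 22.2, 16.5 and 19.2 CPM beside 31.2 to 71.2 CPM (median 37.8) and TIFY 11c (LOC117836106), and lipoxygenase 5 (LOC117864503). Defence and pathogenesis had 2 of 75 above and 3 below, with differences of -0.40, 0.48 and -0.20 in which ndhO alone was above 0. Above were glucosidase 8-like (LOC117848159) and a chitinase domain-containing gene (LOC117856913), and below GVI (LOC117850239), chitinase-like 1 (LOC117843843) and thaumatin-like 1 (LOC117861061). Glutathione transferases had 4 of 38 below and 0 above (-0.44, 0.47 and -0.22), with GSTU1 (LOC117838688) at 26.01, 30.4 and 25.0 CPM beside 45.8 to 77.4 CPM (median 66.8), a second GSTU1 (LOC117851448), DHAR2 (LOC117853206) and transferase 1 (LOC117858050). Cytochrome P450 had 2 of 82 above, 714B1-like (LOC117842028) and a P450 reductase (LOC117848722), and 3 below, 704C1-like, 94B3-like (LOC117836395) and another reductase (LOC117861616), with differences of -0.11, 0.19 and -0.025. Phenylpropanoids and flavonoids had 1 of 97 above, cinnamoyl-CoA reductase 1-like (LOC117853922), and 5 below (-0.006, 0.073 and -0.093). Phenylalanine ammonia-lyase (LOC117862857), the entry to that pathway, stood at 4.09, 14.7 and 8.45 CPM beside 18.9 to 49.5 CPM (median 30.8), and chalcone synthase C2 (LOC117833598), chalcone isomerase (LOC117836517), 4-coumarate ligase 3 (LOC117860009) and caffeic acid methyltransferase (LOC117861177) lay below with it. Aquaporins had 1 of 20 below and 0 above (-0.32, -0.24 and -0.094), the PIP2-6 gene. Wall loosening had 2 of 51 above, pectinesterase inhibitor 8-like (LOC117843074) and a polygalacturonase (LOC117837891), and 3 below, expansin-A7 (LOC117838910), xyloglucan hydrolase 28 (LOC117835643) and a pectinesterase (-0.11, 0.27 and 0.089). Cytokinin and gibberellin had 1 of 38 below and 0 above (-0.18, 0.21 and 0.12), the response regulator ORR4-like (LOC117857894).

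On plain CPM more members of many lists stood above and fewer below. There 14 peptidases, 10 sugar genes, 18 phosphoinositide genes, 15 Mediator and polymerase genes and 8 nutrition genes stood above, and 0 NAC factors, 0 ethylene response factors and 0 proteasome genes stood below. Also above were 3 WRKY factors, 3 nitrogen genes, 3 dividing-cell genes and 3 chlorophyll breakdown genes. Pentatricopeptide proteins were then split 13 above to 15 below. The NDH complex kept its count of 13 below, and photosystem I, photosystem II, the Calvin-Benson cycle, chlorophyll synthesis and the plastid ribosome had 5, 12, 14, 14 and 31 below.

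**Figure D5:**
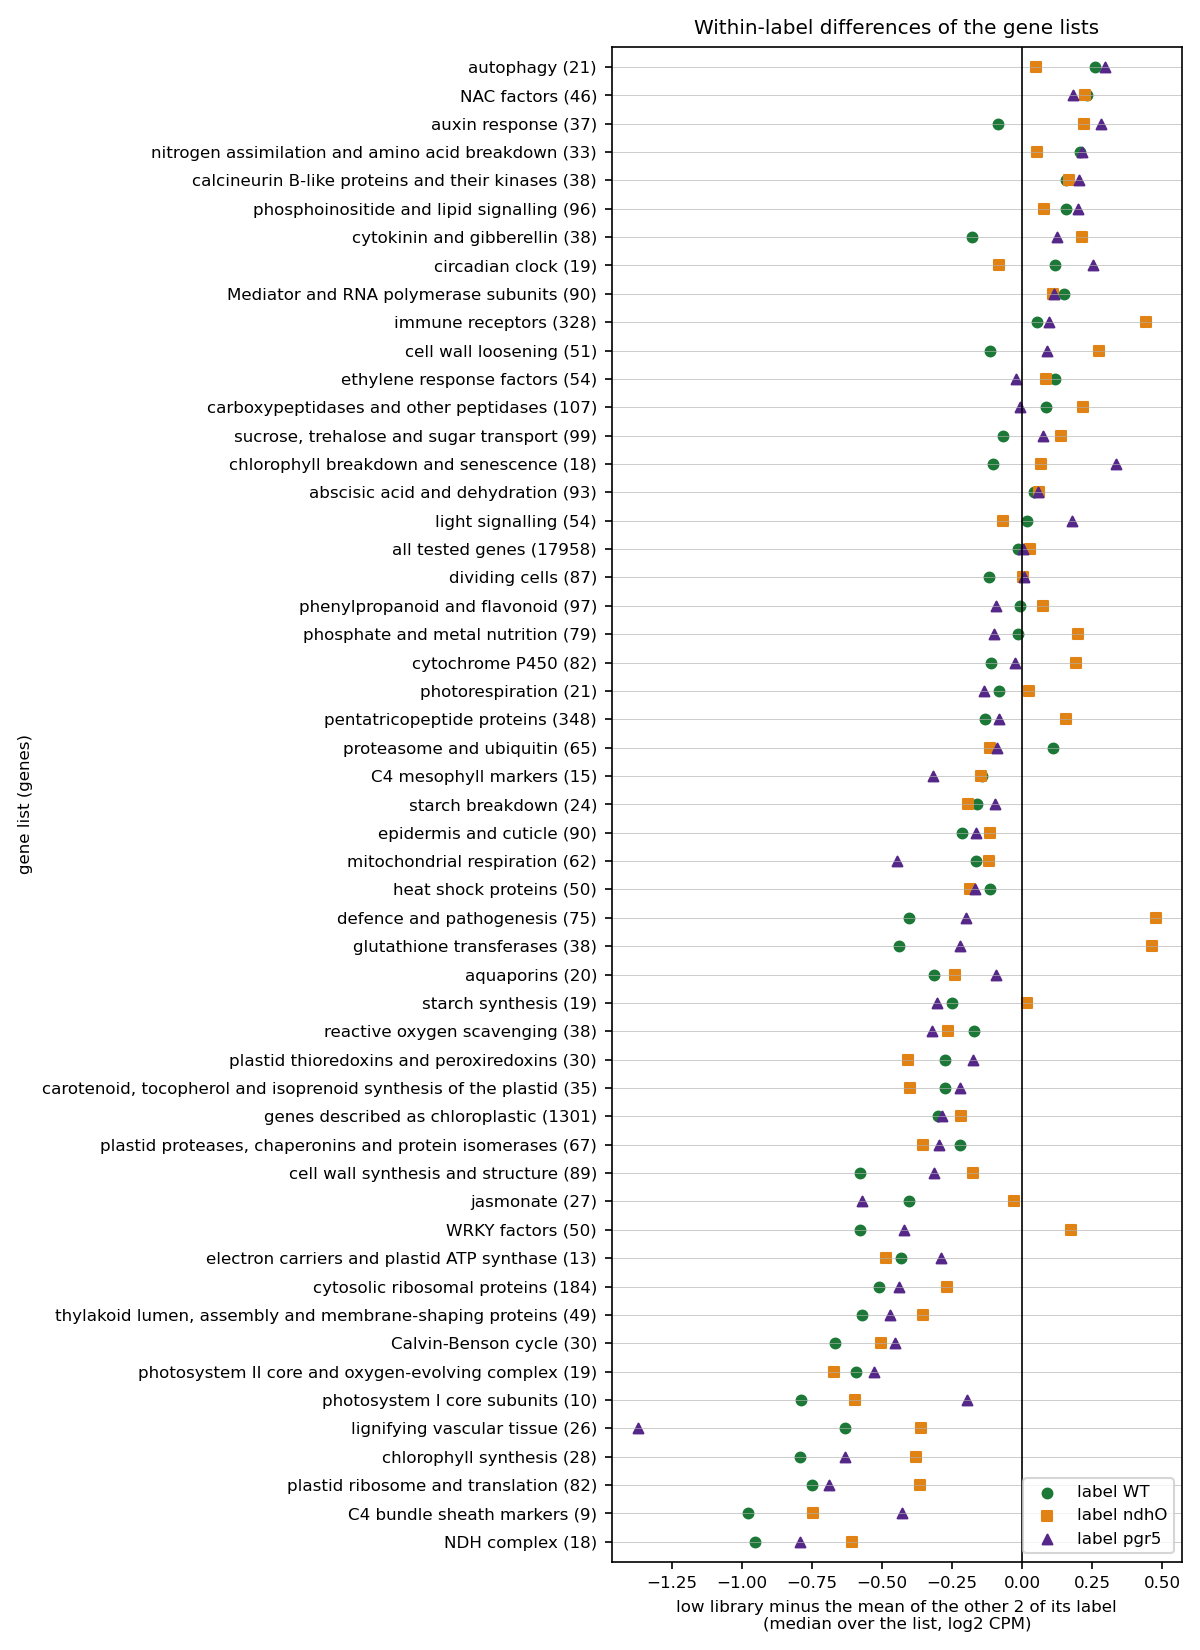
Within-label difference of each gene list (rows, with the number of genes), the log2 CPM of the low library minus the mean of the other 2 of its label, as the median over the list (x axis), with 1 point per label. All 3 points lie left of 0 for the photosystem, Calvin-Benson, chlorophyll synthesis and plastid ribosome lists, from -0.95 to -0.61 for the NDH complex, while ndhO lies right of 0 for photorespiration and pentatricopeptide proteins. The points lie on both sides for defence genes and glutathione transferases, where only ndhO lies right of 0.

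Some genes were at 0 counts throughout the low set. There were 20 genes with 0 counts in all 3 low libraries and at least 1 count in each of the other 6, and 0 genes the other way round. A count of 0 allows up to 3 counts, which is 0.245 CPM in WT 3, 0.206 CPM in ndhO 1 and 0.235 CPM in pgr5 2, for counting error only. Laccase-3 (LOC117854826), which polymerises lignin, had from 9 to 108 counts in the other libraries, highest in WT 1. The aquaporin PIP2-6 (LOC117842348) had from 16 to 26 counts there, and classical arabinogalactan protein 9-like (LOC117844559) from 17 to 92. Cytochrome P450 704C1-like (LOC117852045) had from 11 to 68 counts. Kinesin-like KIN-14R (LOC117846883), the pectinesterase LOC117856513 and polyol transporter 6 were at 0 in the same way, with at most 30, 32 and 17 counts in any other library. The low libraries were among the smaller ones, so such genes are near the limit of what was counted.

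The genotype labels were the groups the study set out to compare, and they were tested across all genes. edgeR's quasi-likelihood test over all 9 libraries called 0 of 17970 genes at an adjusted p of 0.05 for ndhO against WT (0%), for pgr5 against WT and for pgr5 against ndhO, with 493, 371 and 480 genes at an unadjusted p under 0.05. DESeq2 called 16 (0.0893%), 6 (0.0335%) and 12 (0.067%) of 17919 genes in those contrasts. The lowest edgeR adjusted p was 0.9999 among 112 genes, those named by the rule and part of those added later. Other genes given above, such as enhancer protein 1 and PsbS, were not in that set. Each label held 1 low library. NdhO and PGR5 transcripts went against several labels, as given above. These contrasts therefore compare labels, not libraries grouped by the transcripts of the edited genes.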

How the data were processed

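Leaf RNA of Setaria viridis was sequenced by the study in 9 libraries, 3 biological replicates for each genotype label, per the labels. The authors deposited 1 table with a count per gene and library, used here as raw counts. The log2 fold changes, scores and p-values that the authors deposited beside the counts were not used. The submitters' processing notes name limma 3.62.2, edgeR 4.4.1, StringTie 2.2.3, Trim Galore 0.6.7 and FastQC 0.11.9. Not given in the sources used here are the aligner, the counting and the build. Reads of near-identical genes may have been split between copies.

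Columns were matched to samples by genotype and last number; the ndhO and pgr5 columns carry a further number whose meaning is not given. RefSeq's gene table held 17558 of the 17987 gene IDs. A filter on low counts kept 17970 genes, and 12 antenna genes were then left out. Log2 CPM used TMM scaling and a prior count of 2 (R 4.3.3, edgeR 4.0.16, limma 3.58.1). Genotype labels were compared with edgeR's quasi-likelihood test in 1 fit over 9 libraries, with Benjamini-Hochberg adjustment at 0.05, and with DESeq2 1.42.0 as an alternative; the procedure was tested on simulated data. Replicate spread is that among these libraries. Other scalings, filters, prior counts and left-out libraries were tried.

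The libraries, members and lists were chosen with earlier results of these data known. The patterns of 6 lists were corrected after their members were viewed, ferredoxin was added to the electron carriers after its gap was seen, and 10 of the 52 lists were written after the separating genes were seen. Genes named by rule had a mean of at least 10 CPM, a characterized product and one of the 12 widest gaps in a direction, or the widest gap of their list; NdhO and PGR5 were also named.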

Additional observations from a re-analysis of the deposited data

How the results depend on the processing

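Plain CPM moved the count of genes above from 770 to 1237. Leaving out 1 library gave 876 to 1530 genes above and 1088 to 1792 below, with 1281 above without WT 3, 1530 above and 1792 below without ndhO 1, and 1494 above and 1634 below without pgr5 2; fewer libraries make separation easier by construction. DESeq2, run on all libraries alone, called 16, 6 and 12 genes for the label contrasts where edgeR called 0; edgeR also called 0 with any 1 library left out. Deviations of same-numbered libraries from their label means had r from -0.382 to 0.063, and those of WT 3 and pgr5 2 had 0.324. Whether the numbers pair the libraries cannot be told from this, since the low libraries carry different numbers. With a replicate block edgeR called 0 genes in each contrast, with 325, 246 and 280 at an unadjusted p under 0.05.

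Leaving out 1 library changed the sign of 24 of 156 list medians, several of which are given here; the cause was not tested. On plain CPM the ndhO difference became 0.016 for the proteasome, 0.05 for the clock and 0.063 for light signalling. Without WT 1 the WT difference became 0.143 for chlorophyll breakdown (range -0.351 to 0.143), 0.132 for WRKY factors (-1.263 to 0.132) and 0.007 for heat shock proteins (-0.093 to 0.007). Without WT 2 it became -0.083 for NAC factors (-0.083 to 0.242). Without pgr5 1 the pgr5 difference became 0.017 for the proteasome (-0.104 to 0.017) and 0.063 for glutathione transferases (-0.345 to 0.063). Gaps closed on plain CPM for LOC117854270 (-0.004), LOC117854208 (-0.025, and -0.018 on upper-quartile scaling), LOC117850422 (-0.052) and LOC117850163 (-0.006). Of the remaining gap values 416 stayed within the spread and 11 moved without closing. Depth limits the genes near 0 counts in the 3 low libraries.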
